A study of Mus musculus with 20 samples.

Results

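Neurons of the mouse subiculum that carried Rprm transcripts while being low in Nts and Calb1 were examined one cell per well. A well entered when it had at least 1000 detected genes and at least 1 count of Slc17a7, the vesicular glutamate transporter of cortical and hippocampal excitatory neurons. Values are counts per 10000 counts of the well. A well was taken when its Rprm value was 0.5 or more, its Nts value under 3 and its Calb1 value under 2. These limits selected 57 of the 326 wells that passed, out of 384 wells in all, and the wells are called Rprm wells below. The limits were set on the same table, so the levels of Rprm, Nts, Calb1 and Slc17a7 describe the selection and support nothing.

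The subiculum is the main output station of the hippocampus, and its pyramidal cells send axons to different brain regions. Rprm encodes reprimo, a membrane-associated protein known as a p53 target that arrests the cell cycle. Nts encodes the neuropeptide neurotensin and Calb1 the calcium buffer calbindin, and both mark subsets of hippocampal pyramidal neurons. Of the other genes listed as marks of the Rprm wells, Fstl5 encodes a secreted follistatin-like protein, Slit2 a guidance ligand for Robo receptors, S100b a calcium-binding protein best known from astrocytes, Klhl1 an actin-binding kelch-like protein and Teddm3 a transmembrane protein.

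Labelled neurons were picked by hand from dissected slices of mouse brain, as the labels' protocol states. The single cells come from 4 plates of 96 wells, Q5 to Q8, while the labels give 8 single-cell samples of 1 description. Wells could not be assigned to these samples or to animals. They were treated as 1 pooled sample with plates as technical units, so no p-value is given for single cells and intervals cover counting error only. The 12 bulk libraries, 3 biological replicates per group, hold subiculum pyramidal cells that project to NA, PFC, RSC or VHN. The labels leave these abbreviations unexplained. PFC usually stands for prefrontal cortex, RSC for retrosplenial cortex and NA for nucleus accumbens. Strain, age, sex and the fluorescent tracer are not given in the sources used here.

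Rprm itself ranged from 0.506 to 6.88 over the 57 wells, with a median of 1.45. The 3 wells just inside the limit had Rprm values of 0.506, 0.627 and 0.681, and the 3 just outside 0.424, 0.421 and 0.375. Of the 68 wells that were low in all 3 genes, 50 had no Rprm count. At the Nts limit the nearest wells stood at 2.93 inside and 3.04 outside, so this limit cuts through a continuous range. The nearest wells at the Calb1 limit stood at 1.15 and 2.42. The remaining 269 wells comprised 137 with Nts of 3 or more, 64 with Calb1 of 2 or more and Nts under 3, and the 68 low in all 3. Rprm was not confined to the selected wells. It had a count in 22 of the 137 Nts wells and in 21 of the 64 Calb1 wells, among them the highest value of all, 9.36.

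**Figure D1:**
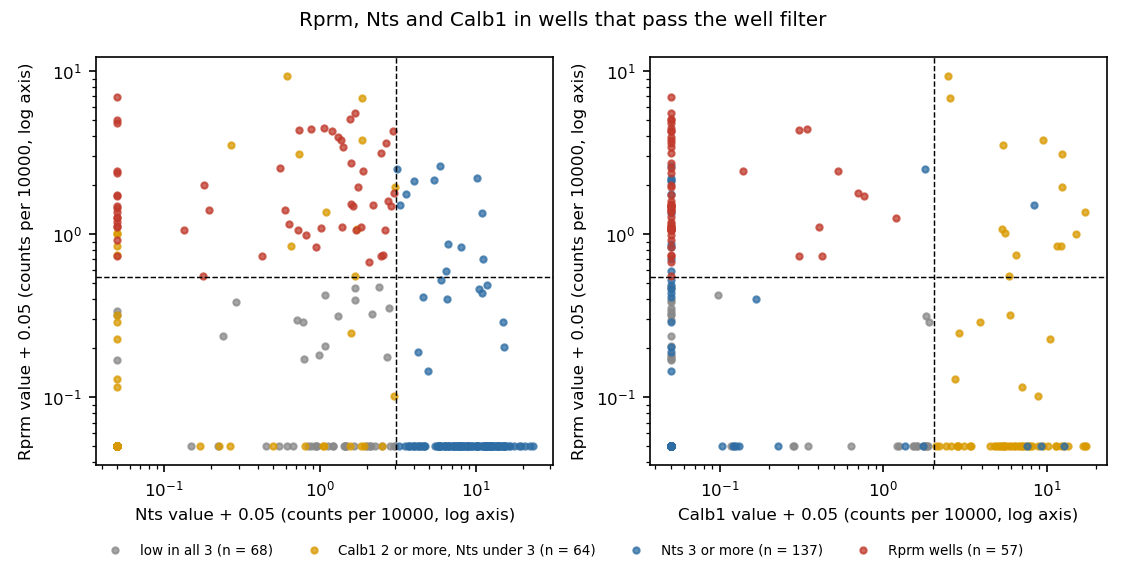
Rprm against Nts (left) and against Calb1 (right) in the 326 wells that passed, each point 1 well, in counts per 10000 plus 0.05 on log axes. Dashed lines are the limits of the selection. The 57 Rprm wells lie above the horizontal line and left of both vertical lines, and Nts runs through its limit without a gap.

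Rprm and Fstl5 are shown by the 250 bases before their annotated start, because Rprm defines the wells and Fstl5 had the largest difference of all genes higher in them. Rprm has 1 annotated start. Fstl5 has 2, of which only the first listed was examined. Sequences are from RefSeq on GRCm38.p6, printed 5′ to 3′ in the direction of transcription. Capitals mark GGGCGG, the GC box bound by SP1, on either strand.
Rprm, chr2:54085553-54085802, minus strand: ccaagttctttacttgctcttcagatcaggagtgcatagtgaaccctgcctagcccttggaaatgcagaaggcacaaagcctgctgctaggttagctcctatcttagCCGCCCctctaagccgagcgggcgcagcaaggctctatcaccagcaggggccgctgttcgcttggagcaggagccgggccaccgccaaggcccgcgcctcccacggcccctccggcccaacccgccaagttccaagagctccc
Fstl5, chr3:76074311-76074560, plus strand: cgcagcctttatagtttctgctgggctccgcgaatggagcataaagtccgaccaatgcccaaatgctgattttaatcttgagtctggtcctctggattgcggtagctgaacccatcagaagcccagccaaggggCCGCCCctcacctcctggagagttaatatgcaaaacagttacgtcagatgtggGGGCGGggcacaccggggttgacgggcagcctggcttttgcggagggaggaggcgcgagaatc
Rprm had 1 match and Fstl5 had 2. Neither window held CAGCTG, an E-box. Over promoters of the same length, GGGCGG on either strand was present for 61.6% of the 7636 compared genes with a RefSeq entry, for 21 of 30 genes higher in the Rprm wells (70.0%) and for 37 of 63 genes lower in them (58.7%). CAGCTG, whose 2 strands read the same, was present for 10.7%, 2 of 30 and 5 of 63. The motifs do not overlap each other, and a match is a description of these letters only.

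The Rprm wells were spread over all plates, with 10 of 83 passing wells on Q5 (12.05%), 15 of 81 on Q6 (18.5%), 10 of 78 on Q7 (12.8%) and 22 of 84 on Q8 (26.2%). Over all plates they made up 17.5% (95% exact Clopper-Pearson interval 13.5 to 22.1). Depth was similar, with a median of 117728 counts per Rprm well and 113658 per other well, and 5446 and 5243 detected genes. On Q8 the Rprm wells were deeper, at a median of 181126 counts. The Nts wells of that plate had a median of 149195, the Calb1 wells 160459 and the wells low in all 3 genes 106003. Shares of wells with a count are therefore also given after each well was thinned to 20000 counts, which left out 1 Rprm well.

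Pyramidal markers were present in the Rprm wells and in the others. The 13 markers in the table summed to 38.1 per 10000 in Rprm wells and 42.1 in the others. List sums, here and below, are means over wells, while values of single genes are averages of the 4 plate means unless stated. Nrgn, the postsynaptic calmodulin-binding protein neurogranin, stood at 10.3 and 8.79, and Neurod6, a transcription factor of excitatory neurons, at 2.05 and 1.97. Cck, the peptide cholecystokinin, stood at 9.13 and 14.4 and was lower on 4 of 4 plates, without reaching the size set below for a call. Of the 19 deep cortical and entorhinal markers in the table, 9 were at 0 in every Rprm well. Foxp2, Syt6, Ntsr1 and Cplx3 were among them, and these were also in at most 2 of the 269 other wells. This list summed to 21.0 per 10000 in Rprm wells and 22.3 in the others. Of its 8 genes compared, 0 were called higher and 0 lower, where 0.358% and 0.815% of all genes compared were. The median log2 difference of the 8 was −0.126, beside −0.075 over all genes compared. Its genes went both ways. Fezf2 and Bcl11b, transcription factors of deep-layer projection neurons, stood at 3.23 against 2.11 and at 4.66 against 3.86. Both were higher on 4 of 4 plates. Nr4a2 stood at 1.47 against 2.53 (lower on 4 of 4 plates) and Etv1 at 4.59 against 5.18 (lower on 3 of 4). These genes were named after their values were seen, and none was called.

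Transcripts of other cell types were scarce in both groups, with exceptions. Of the microglia and of the endothelial and mural markers, 6 of 8 of each list were undetected in the Rprm wells. The interneuron list summed to 0.893 per 10000 in Rprm wells and 1.10 in the others. This sum includes Lamp5, which was called lower in the Rprm wells. In single wells the sum reached 20.5 in a Rprm well and 8.63 in another well. Vip, Npy, Adarb2 and Dlx6os1 were at 0 in the Rprm wells and in at most 1 other well. Gad1, the enzyme that makes GABA, had 2 or more counts in 2 of 57 Rprm wells (3.51%, exact interval 0.428 to 12.1), 1 on Q5 and 1 on Q8, and in 0 of 269 others. Gad2, Slc32a1, Sst, Lhx6 and Dlx1 each had a count in 1 Rprm well and in 0 others, and Pvalb stood at 0.153 against 0.0268. The highest count in a Rprm well was 88 for Gad1 and 36 for Gad2. Whether a Rprm well held an interneuron was not tested. Without the 2 wells with Gad1, a setting chosen after seeing the data, 38 genes were called higher and 88 lower, of which 32 and 77 were among the calls with them. Mbp, the myelin basic protein of oligodendrocytes, had 2 or more counts in 35 Rprm wells (61.4%) and in 145 others (53.9%), whereas Mag, Mobp, Olig1 and Olig2 were at 0 in the Rprm wells and in at most 4 others. The astrocyte list summed to 1.16 in Rprm wells and 0.854 in the others. Slc1a2, the glial glutamate transporter, stood at 0.879 against 0.542 (higher on 3 of 4 plates), while Gfap, Aldh1l1 and Gjb6 were at 0 in both groups.

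The markers named for this selection, leaving out Rprm, were seen together more often in the Rprm wells. They were chosen with earlier results of these data known, so their joint presence describes the selection and is no separate support for it. At least 3 of Fstl5, S100b, Teddm3, Klhl1 and Slit2 had a count in 34 of 57 Rprm wells (59.6%) and in 35 of 269 others (13.0%). By plate the Rprm wells with at least 3 numbered 9 of 10 on Q5, 10 of 15 on Q6, 4 of 10 on Q7 and 11 of 22 on Q8. The other wells with at least 3 made up 5.88% to 16.7% on these plates. Among the 68 wells low in all 3, 16 had at least 3 (23.5%), from 9.09% on Q7 to 32.0% on Q5. All 5 were found in 4 Rprm wells and none of the 5 in another 4. S100b and Teddm3 were the pair most often found together, in 22 wells, and Fstl5 and Klhl1 the pair least often, in 11.

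Across 10065 genes detected in at least 10% of passing wells, 36 were called higher in the Rprm wells (0.358%) and 82 lower (0.815%). A gene was called when its difference within plates, log2((Rprm mean + 0.05)/(other mean + 0.05)), averaged at least 1 in size over the 4 plates, had the same sign on all 4, and its mean was at least 0.2 per 10000 in the higher group. The added 0.05 makes the difference of low genes smaller than their ratio. Means below are averages of the 4 plate means, and differences are on this log2 scale, with the SD over the 4 plates.

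Fstl5 was the gene furthest above the other wells. Its mean in the Rprm wells was 1.18, 0.539, 0.308 and 0.543 on Q5 to Q8, against 0.0302, 0.0653, 0.0424 and 0.102 in the other wells. The Rprm wells were higher on every plate, and the difference was 2.55 ± 0.94. Fstl5 had a count in 28 Rprm wells (49.1%, 35.6 to 62.7) and 18 others (6.69%, 4.01 to 10.4), and in 32.1% and 4.09% after thinning. The summed counts were 436 in the Rprm wells (exact Poisson interval 396 to 479) and 223 in the other wells (195 to 254), which are far more numerous. Single wells overlapped, since 29 of the 57 Rprm wells had no Fstl5 count and the highest other well reached 4.12.

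Teddm3 and Slit2 were also called higher. Teddm3 stood at 0.539, 0.847, 0.684 and 0.670 on the 4 plates in Rprm wells and at 0.153, 0.226, 0.202 and 0.289 in the others, a difference of 1.47 ± 0.26 that varied little by plate. It had a count in 47.4% and 27.9% of wells. Slit2 stood at 0.669, 0.521, 0.297 and 0.243 in Rprm wells and at 0.141, 0.158, 0.117 and 0.213 in the others, for a difference of 1.15 ± 0.75. On Q8 the Slit2 groups were almost level, with a difference of 0.16.

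S100b and Klhl1 were not called. The sign of each was not the same on every plate, and the mean difference of Klhl1, 0.85 ± 1.43, was also under the size limit. S100b averaged 2.35, 2.61 and 1.08 on Q5 to Q7 in the Rprm wells against 0.436, 0.366 and 0.401 in the others, but 0.598 against 0.627 on Q8. Its mean difference was 1.56 ± 1.23, and it had a count in 71.9% of Rprm wells and 33.8% of the others. Klhl1 stood furthest apart on Q6, at 0.775 against 0.0681, and had differences of 1.005, −0.40 and −0.01 on Q5, Q7 and Q8. Of the 5 markers beside Rprm, 3 were therefore called. As the markers were chosen with earlier results of these data known, this count is no separate support for the selection.

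**Figure D2:**
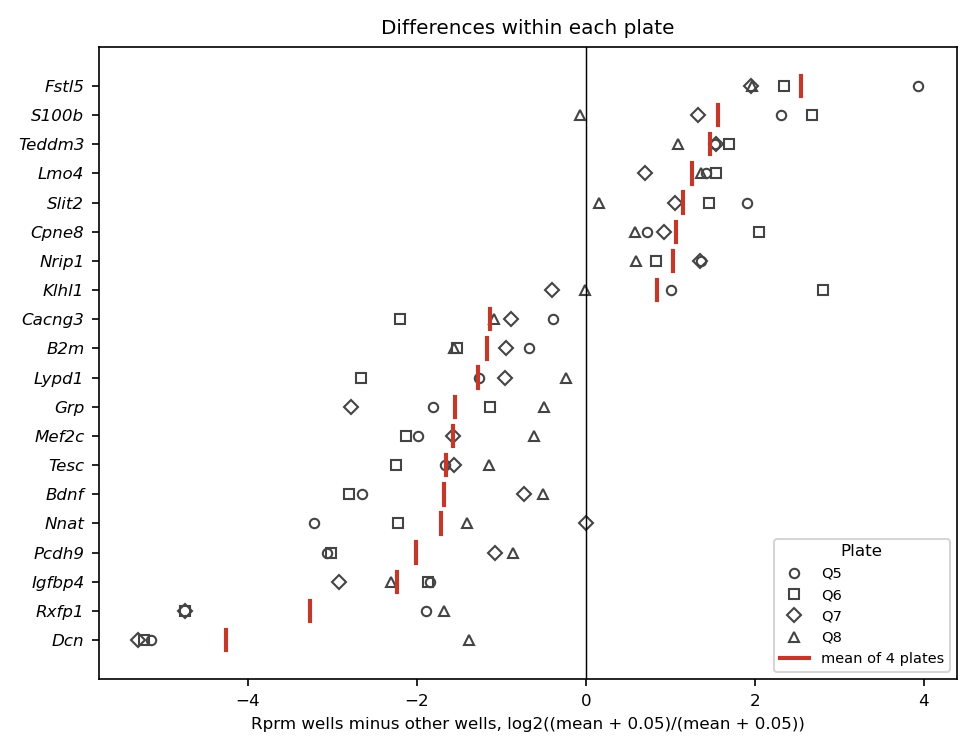
Difference between Rprm wells and the other wells on each plate (symbols) and its mean over the 4 plates (red bar), on the log2((mean + 0.05)/(mean + 0.05)) scale, for the marker genes and for called genes with a mean of at least 1 per 10000. Fstl5 and Teddm3 lie to the right of 0 on all plates, S100b and Klhl1 cross it, and Dcn on Q8 lies far from the other 3 plates.

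Among genes with a mean of at least 1 per 10000, only 3 were called higher, Lmo4, Cpne8 and Nrip1. Lmo4, a LIM-domain cofactor of transcription, had the highest level of all 36. It stood at 4.63, 5.44, 2.18 and 5.73 on Q5 to Q8 in the Rprm wells and at 1.69, 1.83, 1.32 and 2.20 in the others, a difference of 1.26 ± 0.38. Over single Rprm wells Lmo4 ranged from 0 to 16.4 with a median of 4.62, against a median of 1.16 in the others, whose highest well reached 16.7. The ranges overlapped almost entirely. With an added 0.5 in place of 0.05, Lmo4 was the 1 gene still called higher.

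Cpne8, a calcium-dependent phospholipid-binding copine, stood at 1.53, 2.84, 2.03 and 1.23 in Rprm wells and at 0.906, 0.650, 1.04 and 0.803 in the others (difference 1.07 ± 0.67). Nrip1, a corepressor of nuclear receptors, stood at 1.73, 1.54, 1.93 and 0.834 against 0.638, 0.843, 0.723 and 0.535 (difference 1.04 ± 0.39). Both were higher on every plate, and the smallest difference of each was on Q8.

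**Figure D3:**
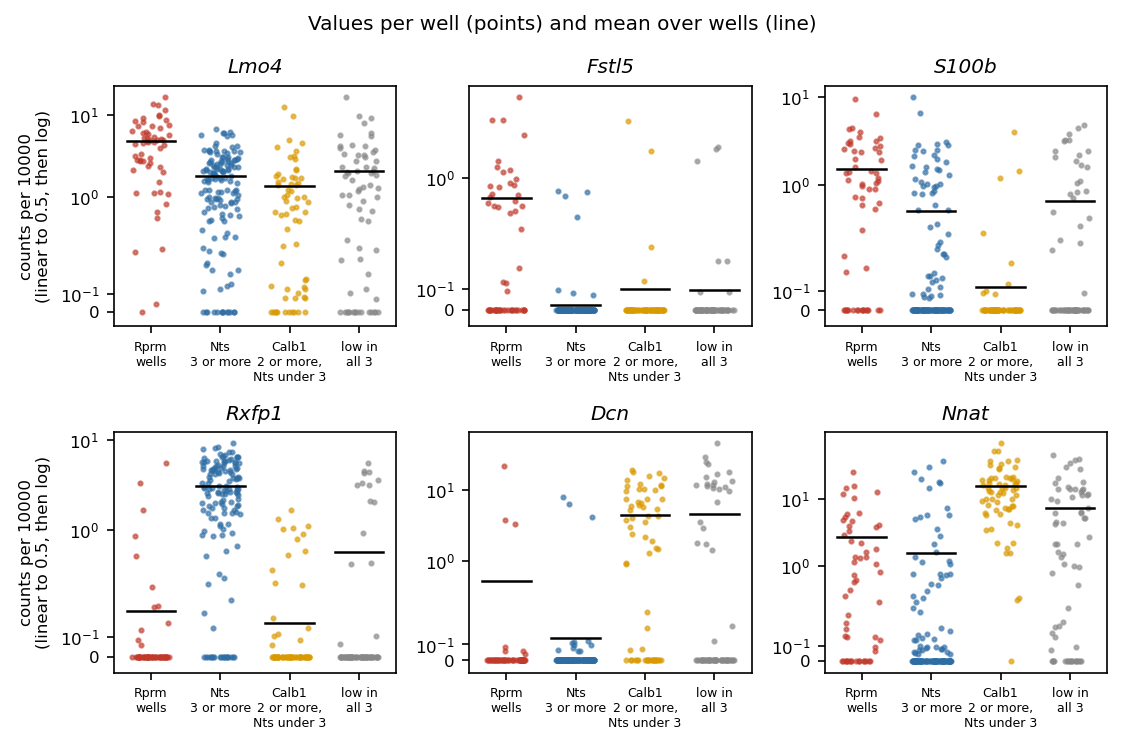
Values per well (points, counts per 10000, linear to 0.5 and then log) and their mean over wells (line) for 6 genes in the Rprm wells (n = 57), the Nts wells (n = 137), the Calb1 wells (n = 64) and the wells low in all 3 (n = 68). Lmo4 and Fstl5 have their highest mean in the Rprm wells, Rxfp1 is high in the Nts wells, and Dcn and Nnat are high in the Calb1 wells and in part of the wells low in all 3.

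Over all genes compared, 0.358% were called higher and 0.815% lower, and the median difference was −0.075. Of 15 compared receptors for monoamines, acetylcholine, adenosine and cannabinoids (median difference 0.029), 2 were called higher and 0 lower. These were Adra2a, the alpha-2A adrenergic receptor, at 0.257 against 0.0844 (difference 1.17 ± 0.69), and Htr1b, the serotonin 1B receptor, at 0.244 against 0.0914 (1.03 ± 0.88). Both were detected in few wells, 26.3% and 28.1% of the Rprm wells. With Nts and Calb1 limits of 1 the difference of Adra2a turned to −0.0322, and against the Calb1 wells it was 0.44 (higher on 3 of 4 plates). Of 21 glutamate receptor genes (median difference 0.105) only Grid1, a delta-type receptor, was called, at 0.347 against 0.129 (1.11 ± 0.35). Among 33 voltage-gated potassium channel genes (median difference −0.164) Kcna6, a Kv1 subunit, was called higher (0.440 against 0.194) and Kcng1, a silent modifier subunit, lower (0.1001 against 0.320). In the wells low in all 3 Kcna6 averaged 0.348, and against these the difference was 0.43, higher on 3 of 4 plates. Pcdh10, a delta protocadherin, was higher at 0.838 against 0.246 (1.60 ± 0.27) and had a count in 82.5% of Rprm wells and 31.2% of the others.

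The remaining genes called higher were named after their values were seen. The largest differences among them belonged to Socs2, a suppressor of cytokine signalling (0.609 against 0.141, difference 1.95 ± 0.57), and Pitpnc1, a phosphatidylinositol transfer protein (0.463 against 0.0954, 1.90 ± 0.46). Socs2 had a count in 63.2% of Rprm wells and 21.2% of the others, and Pitpnc1 in 54.4% and 15.2%. Irs2, an adaptor of the insulin receptor, stood at 0.769 against 0.250 (1.37 ± 0.56). Tmtc1, a transmembrane protein of the endoplasmic reticulum, had the most even difference over plates, 1.18 ± 0.11.

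The genes lower in the Rprm wells were more numerous, and several were near 0. Dcn, which encodes the small proteoglycan decorin, had no count on Q5 and Q7 and a mean of 0.00566 on Q6, against 1.71, 1.92 and 2.04 in the other wells of those plates. On Q8 the Rprm wells averaged 1.34 and the others 3.56. Its mean difference was −4.26 ± 1.92, and 7 of 57 Rprm wells had a count. Rxfp1, the relaxin receptor, stood at 0.433, 0.0224, 0.0254 and 0.374 in Rprm wells and at 1.75, 1.90, 1.97 and 1.31 in the others (difference −3.27 ± 1.71). Only 12 Rprm wells had an Rxfp1 count, against 152 of the other 269.

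Of 13 compared neuropeptide and secreted signal genes, 4 were called lower (Bdnf, Igfbp4, C1ql3 and Tgfb2) and Fstl5 higher. Over all genes compared, 0.815% were called lower and 0.358% higher. The median difference of the 13 was −0.627, beside −0.075 over all. Igfbp4, which binds insulin-like growth factors, stood at 0.325, 0.285, 0.103 and 0.163 against 1.30, 1.17, 1.11 and 1.001, a difference of −2.23 ± 0.50. Against the Calb1 wells alone the direction turned, with Igfbp4 higher in the Rprm wells by 1.90 on 4 of 4 plates. Bdnf, the brain-derived neurotrophic factor, stood at 0.929 against 2.80 on average, but the difference was −2.65 and −2.81 on Q5 and Q6 and only −0.73 and −0.51 on Q7 and Q8. Tgfb2, a transforming growth factor, stood at 0.106 against 0.446, and Grp, the gastrin-releasing peptide, at 0.681 against 1.68. Gpr101, an orphan receptor, had a count in 4 Rprm wells and 104 others (means 0.00969 and 0.355, difference −2.78 ± 0.34).

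Adhesion and guidance genes were found at both signs. Lower were Pcdh9, another delta protocadherin (0.725 against 2.42, −2.004 ± 1.198), Tenm3, a teneurin (0.230 against 0.729, −1.66 ± 0.82), and Unc5c, a netrin receptor (0.120 against 0.422, −1.53 ± 0.74). Of 58 adhesion and synapse organizer genes 1 was higher and 3 were lower, and of 30 axon guidance genes 1 was higher, Slit2, and 1 lower, Unc5c. The median differences of these lists were −0.093 and −0.063, beside −0.075 over all genes compared. Of all genes compared, 0.358% were called higher and 0.815% lower. Cacng3, an auxiliary subunit of AMPA receptors, stood at 0.654 against 1.46. The calcium-binding genes Tesc and Necab1 stood at 0.585 against 1.87 and 0.0224 against 0.215. Lypd1, which modulates nicotinic receptors, stood at 0.896 against 1.87, and B2m, the light chain of class I histocompatibility proteins, at 0.556 against 1.24. Mef2c, a transcription factor of excitatory neurons, stood at 0.407 against 1.12, and Nnat, the proteolipid neuronatin, at 2.61 against 6.47. For Nnat both groups were level on Q7, at 5.02, and for Lypd1 the difference was only −0.23 on Q8.

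Genes listed as markers of neighbouring hippocampal fields or of other cell types appeared among the lower genes. Of 8 CA1 markers compared, 2 were called lower, Fibcd1 (0.0880 against 0.343) and Dcn, and 0 higher. Of 5 markers of CA3, CA2 and dentate gyrus, Bok was called lower, with a count in 3 Rprm wells and 51 others. The median differences of these lists were −0.740 and −0.834, beside −0.075 over all genes compared. Lamp5, also a marker of some interneurons, stood at 0.132 against 0.719 (−2.33 ± 1.42), and Aldoc, also an astrocyte enzyme, at 0.0391 against 0.294 (−2.07 ± 0.67). For the sodium, HCN and leak channel genes (21 compared), the GABA and glycine receptor genes (15) and the heat shock and stress genes (13), the count called was 0, where 0.358% of all genes were called higher and 0.815% lower. Their median differences were −0.097, 0.078 and −0.027, beside −0.075 over all genes compared.

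The other wells differ among themselves, so each difference was also set against the 3 kinds of other well. Levels in these kinds are means over wells, and differences are averaged over plates as before. Fstl5 was higher in the Rprm wells than in the Nts wells (mean 0.0203), the Calb1 wells (0.102) and the wells low in all 3 (0.0939), each time on 4 of 4 plates. Lmo4 likewise exceeded the Nts wells (1.78), the Calb1 wells (1.35) and the wells low in all 3 (2.07), and against the last the difference was 1.17 on 4 of 4 plates. Socs2 and Pitpnc1 kept differences of 1.52 and 1.72 against the wells low in all 3. Slit2 did not. It averaged 0.335 in the wells low in all 3, where the Rprm wells were higher on 2 of 4 plates and the difference was 0.21. Htr1b was higher on 2 of 4 plates in that comparison (difference 0.34) and Klhl1 on 1 of 4 (0.27).

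Lower genes split by the kind of well in which they were high. Rxfp1, Igfbp4, Lamp5, Gpr101 and Unc5c were high in the Nts wells (means 3.06, 2.0, 1.13, 0.586 and 0.655), and in the Calb1 wells their means were 0.169, 0.0178, 0.0793, 0.00290 and 0.0645. Against the Calb1 wells, Igfbp4 (1.90), Lypd1 (1.08), Kcng1 (0.54), Cacng3 (0.52), Unc5c (0.49), B2m (0.48), Lamp5 (0.35) and Gpr101 (0.15) were higher in the Rprm wells, on 4 of 4 plates for Igfbp4, 2 for Gpr101 and 3 for the others. Dcn, Nnat, Bdnf, Tesc, Tgfb2 and Mef2c were high in the Calb1 wells (4.46, 15.6, 5.30, 3.50, 1.40 and 1.72). In the Nts wells Nnat was at 1.56, Tgfb2 at 0.0792 and Mef2c at 0.337, and against these wells the difference of Nnat was 1.01 (higher on 2 of 4 plates) and those of Necab1 and Mef2c were 0.08 and 0.02. Against the wells low in all 3, which share the low Nts and Calb1, Dcn differed by −5.28, Mef2c by −2.53 and Bdnf by −2.22, each lower in the Rprm wells on 4 of 4 plates. Igfbp4 differed by −0.46 and Rxfp1 by −0.98 there, each higher in the Rprm wells on 1 plate. Over all genes that comparison called 83 higher and 145 lower, and these included 20 of the 36 and 44 of the 82.

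Most called genes are low, so with an added 0.5 the counts were 1 higher and 8 lower, and without 1 plate they ranged from 47 and 115 (without Q7) to 81 and 175 (without Q8), as fewer plates had to share a sign. A further setting left out wells with transcripts of other cell types, 38 Rprm and 150 other wells. Mbp alone had 2 or more counts in 35 of these Rprm wells and 145 of these others. The setting left 1 plate with enough wells and turned the sign of 11 named genes, Teddm3 and Slit2 among them.

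The Rprm wells were not uniform. By the ratio of variance to mean relative to genes of like level, over 2019 genes, the most variable were Malat1, Pcp4, Tshz2, mt-Cytb, Meg3, Gm42418, Nnat and Gpatch8. Malat1 and Meg3 are nuclear non-coding RNAs and mt-Cytb is encoded by mitochondria. Pcp4, a calmodulin-binding peptide, had a median of 0 and a highest value of 17.9, with a count in 14 wells. Tshz2, a zinc-finger transcription factor, had a median of 0.291 and a highest value of 33.6.

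The high values of Pcp4 and Tshz2 all fell on 1 plate. A set of 5 Rprm wells, all among the 22 on Q8, had Pcp4 or Tshz2 at 10 or more, and 2 of them had both. This set and the genes given for it were chosen after the values were seen, so they are described and not tested. Ly6g6e, a Ly6-family membrane protein, ranged from 2.14 to 13.6 in the 5 wells and had no count in the other 17 Rprm wells of Q8. It had a count in 4 of the other 52 Rprm wells of all plates and in 11 of the 269 other wells (up to 5.81). Nxph3, a secreted neurexophilin, ranged from 1.34 to 3.27 in the 5 and had no count in the other 52 Rprm wells. Outside the selection it had a count in 19 of the 269 wells (up to 3.56). Lmo4 ranged from 8.20 to 16.4 in these wells, against a median of 4.30 in the other 52. On Q8 its mean of 5.73 over all Rprm wells came from 12.6 in the 5 and 3.70 in the other 17. The wells of Q8 outside the selection averaged 2.20.

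By contrast, S100b, Teddm3, Slit2 and Nts had no count in any of the 5 wells, while Fstl5 had a count in 3 of them. Etv1, a transcription factor of deep-layer projection neurons, had a median of 0.411 in the 5 wells and 4.66 in the other 52. Slc17a7 was present at 1.32 to 2.91 in the 5. Wells with Pcp4 or Tshz2 at 10 or more were also found outside the selection, 4 on Q5, 0 on Q6, 3 on Q7 and 3 on Q8. Without such wells of both groups, 38 genes were called higher and 96 lower, of which 28 and 69 were among the genes called with them. The differences of Fstl5, Teddm3 and S100b were then 2.51, 1.51 and 1.63.

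**Figure D4:**
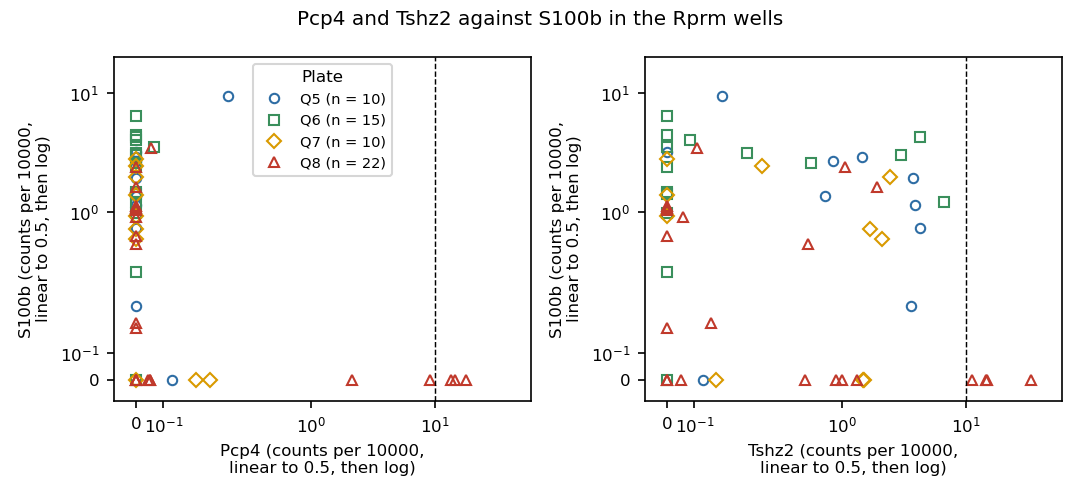
S100b against Pcp4 (left) and against Tshz2 (right) in the 57 Rprm wells, in counts per 10000 on axes that are linear to 0.5 and then log, with a symbol per plate and a dashed line at 10. The 5 wells with Pcp4 or Tshz2 of 10 or more are all from Q8 and have S100b at 0.

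The bulk libraries show in which projection populations the same genes were found. Bulk RNA holds many cells, so fewer cells of a type and less RNA per cell cannot be told apart. Levels are CPM, counts relative to library size after TMM scaling. In RSC, Nts was at 332 CPM ± 63 (SD, n = 3), and VHN had 293 ± 105, NA 21.3 ± 3.7 and PFC 18.8 ± 11.2. For Calb1, NA had 107 CPM ± 30, PFC 220 ± 115, VHN 29.2 ± 25.7 and RSC 0.886 ± 1.53. Wells high in either gene were kept out of the Rprm wells, so the direction in which other genes differ between these populations is tied to the selection and is no separate support for it.

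Rprm varied widely between bulk replicates. It was at 21.7, 1.5 and 24.9 CPM in NA, at 46.9, 17.1 and 4.59 in PFC, at 0.865, 0 and 0.483 in RSC and at 0.158, 12.3 and 26.0 in VHN. RSC was low in all 3 libraries and lay below every NA and PFC library, while VHN ranged over almost the whole span. The contrast of RSC and VHN against NA and PFC gave a log2 difference of −2.99 ± 0.997 (SE) for Rprm, which missed the threshold (edgeR quasi-likelihood test, adjusted p = 0.055). It passed without NA replicate 2 (adjusted p = 0.0243), without PFC replicate 3 (0.0447) and by DESeq2 (0.0048).

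Fstl5 was highest in NA, at 67.8, 69.0 and 54.0 CPM, followed by PFC at 42.4, 18.8 and 9.56. VHN had 1.21, 13.6 and 17.1 and RSC 0.404, 7.06 and 5.56. PFC and VHN overlapped, while all NA libraries lay above all others. Fstl5 was lower in RSC and VHN by a log2 difference of −2.51 ± 0.65 (adjusted p = 0.015). Slit2 followed the order NA (80.9, 170 and 148), VHN (8.46, 73.6 and 86.8), PFC (48.0, 34.6 and 35.1) and RSC (0.404, 10.9 and 1.26), with VHN overlapping its neighbours and an adjusted p of 0.0211 for the same contrast by edgeR.

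S100b was at 30.6, 24.4 and 29.9 CPM in NA and at 5.20, 3.33 and 5.16 in PFC. In VHN it was at 0.210 in replicate 1 and at 15.1 and 41.3 in the others, and in RSC at 0.577 or less. S100b missed the threshold for the contrast of pairs (edgeR adjusted p = 0.0682) and passed it without RSC replicate 1 (0.0236) and by DESeq2 (0.0107). Klhl1 was also highest in NA (52.9 CPM ± 7.9, n = 3) and lowest in RSC (3.6 ± 4.54). It missed the threshold in the same contrast (edgeR adjusted p = 0.0845) and passed it without RSC replicate 2 (0.0187), without VHN replicate 3 (0.0381) and by DESeq2 (0.0194). Teddm3 was under 5 CPM in every library. VHN replicate 1 was the lowest of the 3 VHN libraries for Rprm, Fstl5, Slit2, S100b and Klhl1.

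**Figure D5:**
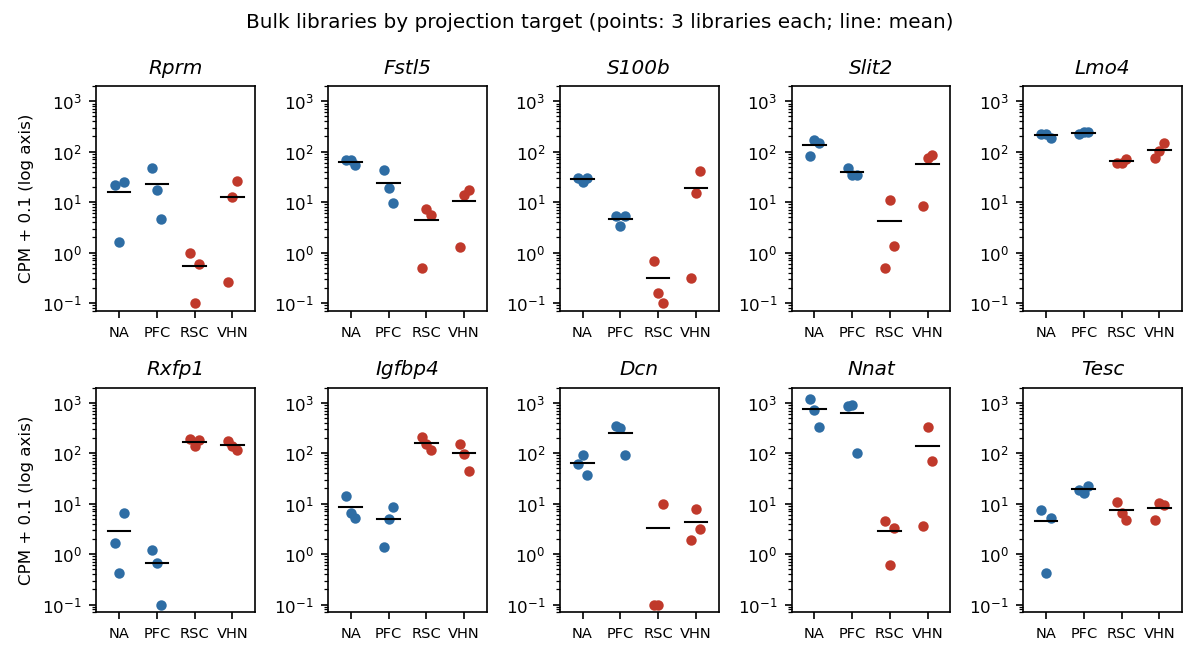
Levels in the 12 bulk libraries by projection target (points, CPM + 0.1 on a log axis) with the mean of each 3 (line), for markers of the Rprm wells and for genes higher or lower in them. Lmo4 in NA and PFC lies above all RSC and VHN libraries, Rxfp1 and Igfbp4 lie the other way round, and Rprm and S100b spread widely within VHN.

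All 36 genes higher in the Rprm wells were tested in bulk among 13916 genes. By edgeR, 16 of the 36 were higher in NA and PFC (44.4%), where 7.58% of all genes were, and 0 of them were higher in RSC and VHN, where 6.66% of all genes were. In the test of any difference among the 4 populations, 10 of the 36 passed (27.8%), against 8.93% of all genes. DESeq2 called 2 of the 36 higher in RSC and VHN. Their median log2 difference (RSC and VHN minus NA and PFC) was −0.72, beside −0.013 over all genes tested. Lmo4 was at 225, 224 and 187 CPM in NA and at 229, 246 and 242 in PFC, while RSC had 60.4, 59.998 and 72.7 and VHN 73.7, 104 and 146. The pairs of populations did not overlap, and the log2 difference was −1.43 ± 0.18 (adjusted p = 4.49e-05). Pitpnc1 (mean 98.3 and 66.7 CPM in NA and PFC, 3.82 and 11.4 in RSC and VHN) and Socs2 (18.6 and 41.5 against 0.631 and 5.15) did not overlap either, with edgeR adjusted p = 0.00118 and 0.00975. Nrip1 had an adjusted p of 0.000108 and Adra2a of 0.00538 by the same test, while Pcdh10, Kcna6 and Grid1 did not pass (0.155, 0.082 and 0.146).

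Of the 82 genes lower in the Rprm wells, 77 were tested in bulk, and they went both ways. By edgeR, 23 were higher in RSC and VHN (29.9%), where 6.66% of all genes were. Another 10 were higher in NA and PFC (13.0%), nearer to the 7.58% of all genes. The median log2 difference of the 77 was 0.16, beside −0.013 over all genes tested. Rxfp1 was at 115 to 187 CPM in the 6 RSC and VHN libraries and at 0 to 6.36 in the other 6 (log2 difference 6.93 ± 0.60, adjusted p = 2.63e-06). Igfbp4, Lamp5, Gpr101, Unc5c, Tenm3 and Lypd1 were higher in the same populations without overlap. Dcn was at 37.6 to 93.8 CPM in NA and 92.6 to 346 in PFC, and at 0 to 9.61 in RSC and VHN (−5.10 ± 0.88, adjusted p = 0.000862). Bdnf and Mef2c were likewise higher in NA and PFC without overlap. Nnat, Necab1 and Tgfb2 were also higher there, but some of their NA or PFC libraries lay below some of RSC or VHN. Tesc did not pass (edgeR adjusted p = 0.826).

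Within each pair of populations the bulk fit gave few calls. Between RSC and VHN, edgeR called 0 genes (0%), with 721 at an unadjusted p under 0.05 and 59 called by DESeq2, and 0 of the 36 genes were among the edgeR calls. Without VHN replicate 1, edgeR called 19. Between PFC and NA, edgeR called 5 genes higher in PFC (0.0359%) and 56 higher in NA (0.402%), and from 22 genes in all without PFC replicate 2 to 152 without NA replicate 3. Of the 36 genes 1 was among them, Cyp51, an enzyme of sterol synthesis, at 112 CPM in NA and 33.8 in PFC. RSC replicates 2 and 3 and VHN replicate 3 had 43.3, 177 and 91.9 CPM of Gad2, another enzyme that makes GABA, and 0 to 7.40 CPM was found in the other libraries. Without those 3 libraries, 9 of the 36 genes were called higher in NA and PFC, where 2.71% of all genes were, among them Fstl5, Slit2, Lmo4, Nrip1, Socs2 and Pitpnc1.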

How the data were processed

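For single cells the authors deposited unscaled counts of each gene in each well. For bulk libraries they deposited a Cuffdiff tracking table, whose raw fragment values are expected counts, per the file headers. Of these, 8.51% of those above 0 were not whole, and all were rounded. The genome build was mm9, per the submitters' processing notes. Aligner, annotation, strand and use of molecular identifiers are not given in the sources used here. Bulk gene fragments ranged from 10777273 to 20904126 per library.

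The wells, the markers and the gene lists were chosen with earlier results of these data known. Named genes are the markers, the 12 largest differences per direction with a mean of at least 1, and up to 3 called genes of each of 25 lists. Bulk tests used edgeR 4.0.16 (filterByExpr, TMM, 1 quasi-likelihood fit of 12 libraries, Benjamini-Hochberg over 13916 genes, threshold 0.05), with DESeq2 1.42.0 as an alternative. Other alternatives changed the limits, the scaling, the added constant and the wells or libraries used. Scripts ran in Python 3.11.15 and R 4.3.3 and were tested on simulated data. No 2 libraries were identical, and samples of the same replicate number did not deviate together (r from −0.026 to 0.038 over 18 pairs). Over 36 pairs of different number r was −0.030 to 0.035. With r this near 0 throughout, the check cannot show whether libraries of 1 number share animals or a batch.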

Additional observations from a re-analysis of the deposited data

Results flagged for a closer look

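In 4 of 58 genes checked, the difference on 1 plate lay far from the other 3, with a gap above the 95% critical value of Dixon's test for 4 values. Chance flags about 1 in 20 such groups. Dcn had a difference of −1.38 on Q8, against −5.30 to −5.14 on the other plates. Map3k10, a kinase of the JNK pathway, had 1.66 on Q5, against 0.72 to 0.84. Ap1g2, an adaptor subunit of vesicle transport, had 2.16 on Q7, against 0.65 to 0.85. Sox8, a transcription factor, had 0.34 on Q8, against 1.41 to 1.56. Each kept its sign on all 4 plates.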

How the results depend on the processing

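Beside 36 genes called higher and 82 lower in the Rprm wells, an Rprm limit of 2 gave 223 and 494 with 2 plates in use. These held 21 of the 36 and 60 of the 82. Nts and Calb1 limits of 1 gave 47 and 219, which held 17 and 60 of them. Thinning gave 49 and 126, which held 24 and 55. Summing counts over wells before scaling gave 39 and 84, which held 24 and 61. An added 0.5 gave 1 and 8, all among the 36 and 82. Leaving out 1 plate gave 47 to 81 higher and 115 to 175 lower, which held 22 to 31 and 61 to 76. The comparison with wells low in all 3 gave 83 and 145. Leaving out wells with transcripts of other cell types, most of them wells with Mbp, gave 799 and 926 from 1 plate. There the requirement of 1 sign over plates no longer filters. The sign then turned for Lypd1 (0.52), Lamp5 (0.0635), Ddx26b (−0.27), Slit2 (−0.32), Katna1 (−0.440), Htr1b (−0.40), Mef2c (0.50), Teddm3 (−0.39), Nrip1 (−0.0679), Slc25a27 (−1.34) and Grp (0.54). Adra2a turned to −0.0322 with Nts and Calb1 limits of 1. The cause was not tested.

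In bulk, the main counts were 1243 (4 populations), 1982 (RSC and VHN against NA and PFC), 0 (RSC against VHN) and 61 (PFC against NA). DESeq2 gave 2408 for the first, 59 and 464 for the last 2, and the fit without a filter 2709, 93 and 514. DESeq2 called 2 and the unfiltered fit 1 of the 36 genes higher in RSC and VHN. Without the 3 libraries high in Gad2, a setting chosen after seeing the data, the counts were 446, 746 and 16 for PFC against NA, and 9 of the 36 genes were called higher in NA and PFC. Leaving out 1 library gave 892 to 1472, 1488 to 2176, 0 to 19 and 22 to 152, 12 to 17 of the 36 genes higher in NA and PFC and 0 to 2 higher in RSC and VHN. Whether replicate numbers pair the libraries is not known. With the replicate number as a block the counts were 1098, 1803, 0 and 52, with 14 of the 36 genes higher in NA and PFC.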
